A study of Rattus norvegicus with 9 samples.

Results

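The genes described here were gathered as genes that build, maintain or move cilia, though Rfx5, for instance, is best known for another role. They were chosen by symbol: the cilia and flagella associated (CFAP) proteins, intraflagellar transport (IFT) proteins, axonemal dynein chains, nexin-dynein regulatory complex and radial spoke proteins, tektins, Bardet-Biedl syndrome (BBS) proteins, numbered centrosomal (CEP) proteins, the kinesin-2 motors, the GTPases Arl3 and Arl6, the transcription factors Foxj1 and Rfx1 to Rfx7, Tmem212 and Wdr54. The choice found 82 genes on 111 probes, of 12167 genes and 35129 probes on the array. Cfap126 and Wdr54 were named in that choice because they were higher in O4 than in NG2 cells, so that contrast is given as a description, and nothing is read from a count of calls in it.

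RNA was measured in cells from cultures of oligodendrocyte progenitors, the cells that give rise to myelin-forming oligodendrocytes, taken from newborn rats with no mutation or treatment named. O4 denotes cells positive for the sulfatide antigen O4 and negative for the proteoglycan NG2, NG2/A2B5 denotes cells positive for NG2 and for the ganglioside epitope A2B5, and NG2 denotes cells with NG2 alone. For each population 3 arrays of a single colour were made, with the numerals I, II and III. The series describes 3 cultures but its labels tie no numeral to a culture, so a p-value here reflects only how these 9 arrays vary, which may be technical. In these bulk samples, fewer cells of a type and less RNA per cell cannot be told apart.

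A cilium grows from a basal body, a modified centriole that docks below the membrane. IFT trains pulled by kinesin-2 carry building blocks to its tip, the BBSome moves membrane proteins in and out, and CEP proteins make the centriole, its appendages and the gate at the base. Motile cilia, as on the ependymal cells that line the brain ventricles, add dynein arms, radial spokes, nexin-dynein links and proteins inside the doublet microtubules, under Foxj1 and RFX transcription factors, whereas most neural cells, progenitors included, carry at most a solitary immotile cilium used in signalling such as Hedgehog.

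Promoter sequences are shown for 6 genes whose values carry the results below: the selected genes Cfap126 and Wdr54, Rfx3 and Bbs2, whose arrays separated O4 from NG2, and Cfap141 and Ift88, whose arrays separated by numeral. Each is 300 bases around the transcription start in the RefSeq table of rat assembly GRCr8, which held promoters of 71 of the 82 genes, and reads 5′ to 3′ on the gene's strand. They lie at chr13:86058892-86059191 (Cfap126, plus strand), chr4:117219221-117219520 (Wdr54, minus), chr1:235122373-235122672 (Rfx3, minus), chr19:10915316-10915615 (Bbs2, plus), chr2:177805040-177805339 (Cfap141, plus) and chr15:35688737-35689036 (Ift88, plus). Capitals mark matches to GTTGCC, the core of an RFX binding half-site, on either strand (GGCAAC is its reverse complement), and in Wdr54 also a pair of half-sites, GTTGC followed by its reverse complement GCAAC with 3 bases between.
Cfap126: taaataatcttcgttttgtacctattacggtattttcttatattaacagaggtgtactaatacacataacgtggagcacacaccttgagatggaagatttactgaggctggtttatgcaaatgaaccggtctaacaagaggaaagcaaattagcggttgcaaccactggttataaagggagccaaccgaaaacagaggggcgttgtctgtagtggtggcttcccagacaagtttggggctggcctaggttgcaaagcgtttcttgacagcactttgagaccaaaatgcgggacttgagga
Wdr54: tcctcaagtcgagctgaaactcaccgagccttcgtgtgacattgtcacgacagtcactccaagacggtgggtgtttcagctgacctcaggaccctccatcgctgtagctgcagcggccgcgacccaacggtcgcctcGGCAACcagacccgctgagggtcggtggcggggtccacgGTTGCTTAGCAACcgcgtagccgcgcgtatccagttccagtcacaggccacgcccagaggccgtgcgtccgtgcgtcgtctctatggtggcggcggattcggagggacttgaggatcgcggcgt
Rfx3: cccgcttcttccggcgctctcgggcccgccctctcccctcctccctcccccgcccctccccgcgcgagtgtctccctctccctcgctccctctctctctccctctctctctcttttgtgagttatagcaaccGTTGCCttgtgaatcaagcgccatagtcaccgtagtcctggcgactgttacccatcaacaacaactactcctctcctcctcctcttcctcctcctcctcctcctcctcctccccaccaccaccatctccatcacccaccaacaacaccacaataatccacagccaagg
Bbs2: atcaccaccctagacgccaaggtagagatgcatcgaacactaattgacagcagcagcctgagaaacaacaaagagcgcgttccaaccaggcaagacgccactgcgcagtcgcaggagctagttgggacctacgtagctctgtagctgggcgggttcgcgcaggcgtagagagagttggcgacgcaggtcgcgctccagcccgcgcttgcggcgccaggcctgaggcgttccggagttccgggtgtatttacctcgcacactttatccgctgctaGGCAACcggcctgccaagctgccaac
Cfap141: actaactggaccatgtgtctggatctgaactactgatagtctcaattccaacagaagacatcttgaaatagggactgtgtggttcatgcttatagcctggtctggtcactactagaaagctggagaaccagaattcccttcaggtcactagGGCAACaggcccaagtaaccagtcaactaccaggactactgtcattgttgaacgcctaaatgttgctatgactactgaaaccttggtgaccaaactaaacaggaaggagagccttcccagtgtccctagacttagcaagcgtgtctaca
Ift88: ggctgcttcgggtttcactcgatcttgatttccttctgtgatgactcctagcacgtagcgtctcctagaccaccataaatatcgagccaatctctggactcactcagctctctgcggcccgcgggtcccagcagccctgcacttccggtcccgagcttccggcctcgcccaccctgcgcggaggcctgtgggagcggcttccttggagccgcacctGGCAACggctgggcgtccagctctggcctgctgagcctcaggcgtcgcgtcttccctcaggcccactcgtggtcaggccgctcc
Cfap126 held no match to any motif searched. In Wdr54 the single half-site began at position -113 and the pair GTTGCTTAGCAAC at -74, counted from the start site to the leftmost base shown. The half-site began at -118 in Rfx3, at 25 in Bbs2, at -99 in Cfap141 and at -34 in Ift88.

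Among all members with a promoter, 27 of 71 (38.0%) held GTTGCC, against 3343 of 27457 promoters (12.2%) of the same length in the table. The table is not limited to the 12167 genes of the array, so this background differs from the one used for the intensities. The half-site was found in 3 of 5 promoters of transcription factor genes, 6 of 16 of IFT and kinesin genes, 3 of 5 of BBSome and ARL genes, 4 of 21 of CEP genes, 4 of 9 of CFAP genes and 3 of 4 of tektin genes. The full X box, GTTNCC followed by GGNAAC with 2 bases between, was in 2 (2.82%, Arl6 and Cfap20dc) against 0.459% of all promoters. The pair of GTTGC and GCAAC with 3 bases between, which was added to the search after the Wdr54 promoter had been read, was in 4 (5.63%, Dnai2, Wdr54, Tekt2 and Tekt4) against 0.248%. These motifs share letters with the half-site, so their counts overlap. The forkhead core GTAAACA was in 4 (5.63%, Cep95, Cfap20, Kif3c and Tekt3) against 3.76%. All motifs were searched on both strands, and a match in these letters is not a bound site.

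The cilium genes were described first by how bright their probes were. Intensities are the deposited linear values, in which the median probe of an array read 1.05 to 1.07 and the 25th percentile 0.205 to 0.255. No detection call is given, so these percentiles only say how well a difference can be measured, and a count of bright probes by role is no comparison of RNA levels between genes. Of the 82 genes, 45 (54.9%) were over the array median on all 9 arrays, against 58.8% of all 12167 genes, a further 13 were over the 25th percentile on all 9, 22 were over it on some arrays, and 2 (Ift70b and Rsph10b) on none. By role, 5 of 6 transcription factor genes, 5 of 6 BBSome and ARL genes, 17 of 23 CEP genes and 12 of 19 IFT and kinesin genes were over the median on all arrays. The counts were 2 of 5 for axonemal dyneins, 2 of 10 for CFAP genes, 1 of 6 for radial spoke and nexin-dynein genes and 1 of 5 for tektins.

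**Figure D1:**
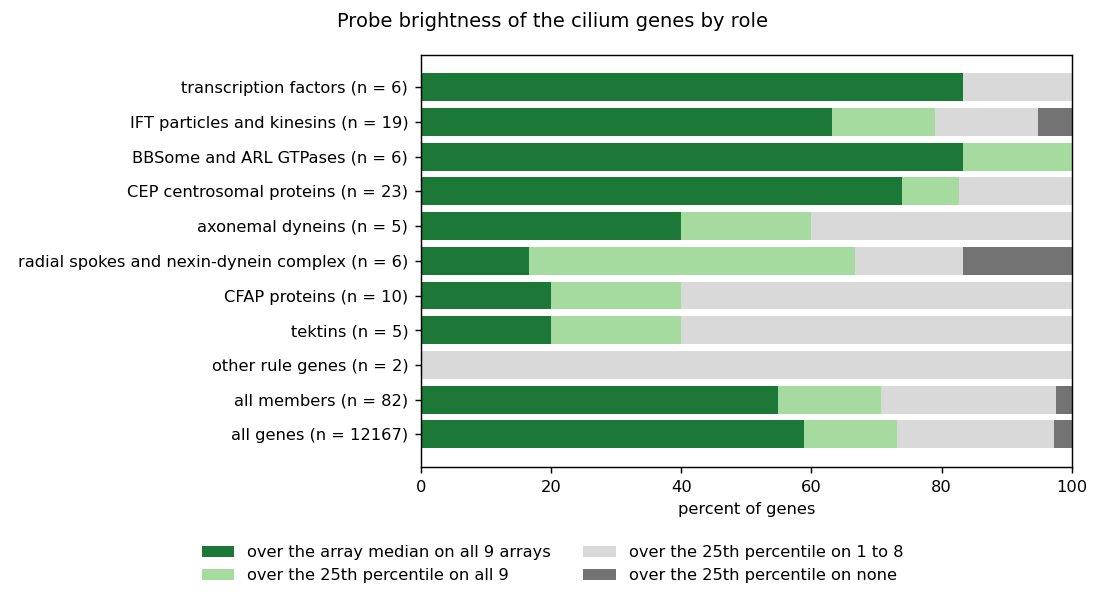
Share of genes (percent) in each class of probe brightness, by role, for the 82 cilium genes and for all 12167 genes. Dark green is over the array median on all 9 arrays, light green over the 25th percentile on all 9, light grey over it on 1 to 8 and dark grey on none; BBSome, transcription factor and CEP genes are mostly dark green and CFAP genes and tektins mostly light grey.

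Foxj1, the forkhead factor that switches on motile cilium genes, stayed near the dim end. It read 0.113, 0.318 and 0.0884 on arrays I, II and III of O4, 0.126, 0.0723 and 0.115 on those of NG2/A2B5, and -0.0143, 0.164 and 0.0675 in NG2, and passed the 25th percentile on 1 of the 9 arrays. Tmem212, a membrane protein gene of ependymal cells in mouse, also passed it on 1 array, with readings of -0.0037 to 0.373. The populations overlapped for both genes. Because values at or below 0 were set to the smallest positive value of the array, the fitted differences of these genes were wide: for Foxj1 in NG2/A2B5 against NG2 the log2 difference was 2.96 (95% interval -2.20 to 8.13), and -0.008 once readings under the 25th percentile were raised to it. Arl13b, a GTPase of the ciliary membrane, was not analysed here.

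The oligodendrocyte lineage label was checked on 12 of 14 listed markers that were measured, of which 6 were over the median on all arrays. Their summed intensity was 534 to 829 on the O4 arrays, 545 to 765 on the NG2/A2B5 arrays and 588 to 708 on the NG2 arrays. Bcas1, Cnp and Cspg4 made up most of each sum. Sox10, a lineage transcription factor, read 29.7 or more on all 9 arrays. Pdgfra, a receptor of progenitors, read 0.213 to 0.917, Olig2, a further lineage factor, 0.292 to 0.709, and Mbp, a myelin gene, 0.058 to 0.371. Olig1 read 6.32 to 9.24. Of the other myelin genes listed, Mag read 8.77 to 16.8, and Mog and Mobp 0.926 or less. Cspg4, which encodes NG2, read 92.1 to 154 on O4 arrays, whose cells are labelled NG2-negative, 104 to 185 on NG2/A2B5 arrays and 135 to 166 on NG2 arrays, and its RNA overlapped between populations. Of 16 ependymal markers outside the selected symbols except for Drc12, 12 were measured, 3 were over the median on all arrays and none was under the 25th percentile on all. Among them Dynlrb2, Spag6l, Ak7, Ccdc39, Tppp3, Meig1 and Odad4 are also on the list of axoneme genes used below. The ependymal list is therefore not independent of cilium genes. The summed level of the ependymal markers was 22.5 to 39.3 on O4 arrays, 24.5 to 43.7 on NG2/A2B5 arrays and 15.7 to 28.1 on NG2 arrays. Mia, Tppp3 and Mlf1 made up most of each sum. Choroid plexus markers summed to 14.8 to 18.5 on O4 arrays, 14.1 to 19.8 on NG2/A2B5 arrays and 13.9 to 16.1 on NG2 arrays. Folr1, the 1 of 10 over the median on all arrays, made up most of each sum. Microglial markers summed to 7.97 to 11.1 on O4 arrays, against 5.66 to 7.32 on NG2/A2B5 arrays and 6.08 to 7.15 on NG2 arrays, so O4 lay above both, and Itgam made up most of each sum. Of these 10 markers 3 were higher in O4 at an unadjusted p under 0.05 in each contrast with O4, and 0 were called by limma. Over all 12165 genes 257 were higher in O4 at that p against NG2/A2B5 and 542 against NG2. Itgam was the 1 microglial marker over the median on all arrays, and C1qa, C1qb and Ptprc read 0.241 or less on every array. Of the 12 ependymal markers 11 were positive in O4 against NG2, with a median log2 difference of 0.25, and 6 in O4 against NG2/A2B5, with -0.02. The part of these markers in the values of the cilium genes was not tested.

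The first comparison sets O4 against NG2/A2B5, cells with O4 but no NG2 against cells with NG2 and A2B5. No cilium gene passed the test: 0 of 82 were called by limma (adjusted p under 0.05, by Benjamini-Hochberg over every gene tested), where 0.00822% of 12165 genes were. At an unadjusted p under 0.05 there were 2 members (2.44%), against 3.28% of all genes. The 3 arrays of O4 lay wholly above or below those of NG2/A2B5 for 7 members (8.54%), against 8.78% of all genes: 2 were higher, as were 5.35% of all genes, and 5 were lower, as were 3.43%. Thus the members' share was close to that of the array as a whole. Cfap126, which was chosen on these O4 arrays, is in the unadjusted count and among the 2 higher members. These counts are therefore not free of the choice. The median log2 difference was 0.04 over members and 0.02 over all genes, with 45 members positive and 37 negative.

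Cfap126 (Entrez 498278), known as Flattop, a protein of motile cilia that in mouse helps to place basal bodies, read 1.73, 0.901 and 0.540 on arrays I, II and III of O4. It read 0.372, 0.223 and 0.337 in NG2/A2B5, and 0.253, 0.156 and 0.324 in NG2. All O4 arrays were above all others, O4 I was the brightest, and the NG2/A2B5 and NG2 arrays lay around the 25th percentile and overlapped. The log2 difference between O4 and NG2/A2B5 was 1.64 ± 0.46 (SE), and 1.20 without O4 I. The O4 arrays that enter it are those that chose the gene, so it is a description and no test is attached to it.

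Drc3, a nexin-dynein regulatory complex subunit, read 1.25, 1.18 and 0.944 on arrays I, II and III of O4, 0.861, 0.765 and 0.755 in NG2/A2B5, and 0.903, 0.852 and 0.510 in NG2. O4 did not overlap either population, and the log2 difference from NG2/A2B5 was 0.50 ± 0.24 (SE, limma adjusted p 0.9997). Cfap300, a dynein arm assembly factor, and Rsph10b, a radial spoke gene, had differences of 1.17 and 2.00, but on probes that passed the 25th percentile on 2 arrays and on none. Cep78 had 0.72, again on a dim probe. Adjusted p-values were 0.9997 for each of these by limma, so none was called.

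Members with the smallest p and a negative sign were led by Dnah1, an inner-arm dynein heavy chain. It read 0.167, 0.117 and 0.0978 in O4, 0.334, 0.223 and 0.216 in NG2/A2B5, and 0.174, 0.337 and 0.257 in NG2 on arrays I, II and III. All O4 values were below the 25th percentile, O4 lay below NG2/A2B5 without overlap, and the difference was -1.02 ± 0.32 (SE, limma adjusted p 0.9997). A further Dnah1 probe, as dim, read 0.172, 0.113 and 0.138 in O4, against 0.129, 0.185 and 0.179 in NG2/A2B5, and there the groups overlapped. Rfx3, a regulator of ciliary genes needed for cilia in mouse brain, had -0.49 ± 0.23 and Bbs1, a BBSome subunit, -0.31 ± 0.17 (SE, limma adjusted p 0.9997 each), both without overlap. Cep83, of the distal appendages that anchor the basal body, had -0.27, and Cfap45, a protein inside doublet microtubules, -0.40, also without overlap. Drc1 had -0.74 with overlap. Cep70 had -1.62 with overlap, which became 0.08 once readings under the 25th percentile were raised to it.

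**Figure D2:**
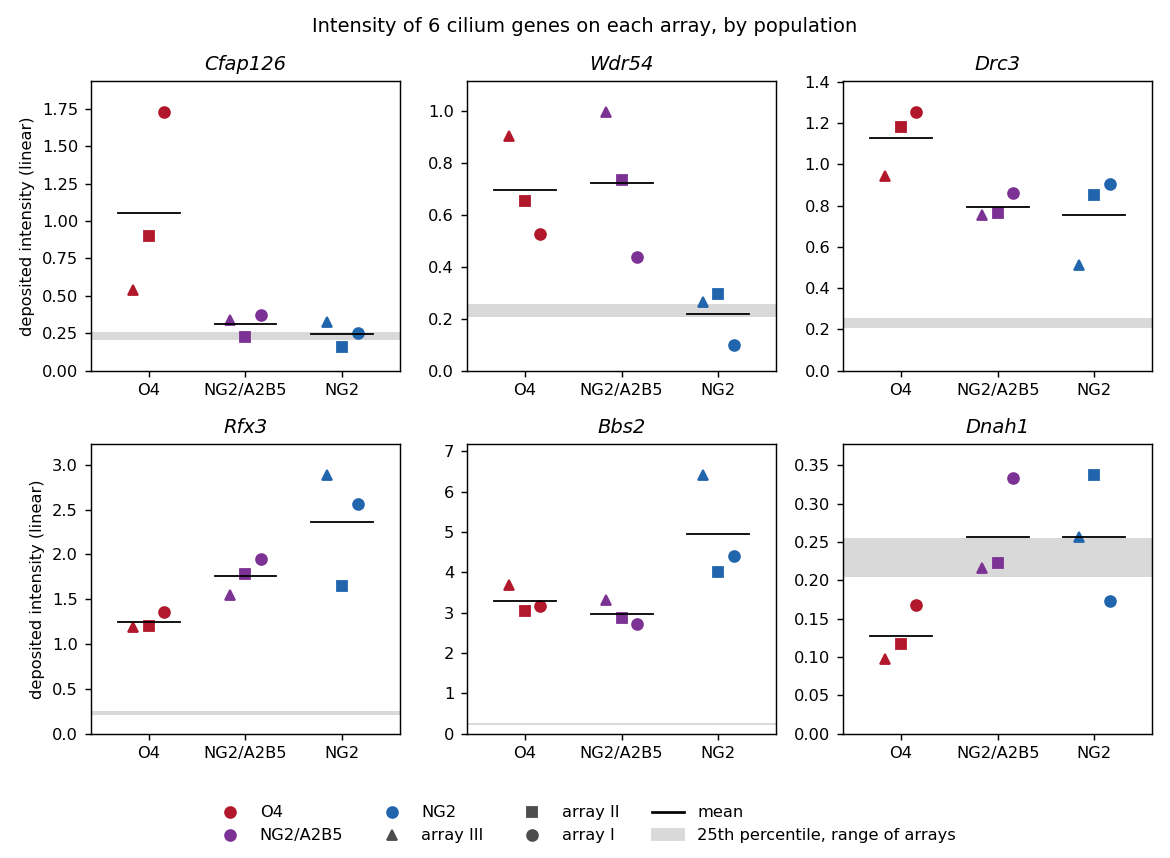
Deposited intensity (linear) of Cfap126, Wdr54, Drc3, Rfx3, Bbs2 and Dnah1 on each array, in O4 (red), NG2/A2B5 (purple) and NG2 (blue) cells; triangles, squares and circles are arrays III, II and I, the black line is the mean of 3 arrays and the grey band is the range of the array 25th percentiles. Cfap126 and Drc3 are highest in O4, Rfx3 is lowest there, Wdr54 is lowest and Bbs2 highest in NG2, and Dnah1 lies around the grey band.

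The second comparison sets NG2/A2B5 against NG2, cells with A2B5 against cells without it. It shares its NG2/A2B5 arrays with the first comparison. Here too 0 of 82 members were called, as were 0.0% of 12166 genes, and 2 members (2.44%) against 4.48% of all genes (545) had an unadjusted p under 0.05. Arrays did not overlap for 10 members (12.2%), against 10.2% of all genes: 4 were higher, as were 5.2% of all genes, and 6 lower, as were 5.05%. Wdr54, whose choice used these NG2 arrays, is in the unadjusted count and among the 4 higher members. The median log2 difference was -0.03 over members, with 36 positive and 46 negative, and -0.01 over all genes. CEP genes were negative in 17 of 23, IFT and kinesin genes in 12 of 19 and CFAP genes in 2 of 10, beside 6278 of 12166 over all genes. Of the 10 CFAP genes, 6 passed the 25th percentile on only some arrays. Genes on the same arrays are not independent, so nothing is read from these counts.

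Wdr54 (Entrez 500226), a WD repeat protein, read 0.525, 0.652 and 0.903 on arrays I, II and III of O4, 0.436, 0.734 and 0.995 in NG2/A2B5, and 0.0995, 0.293 and 0.266 in NG2. The O4 and NG2/A2B5 arrays interleaved, and all were above the NG2 arrays, which lay around the 25th percentile. The log2 difference was 1.79 ± 0.48 in NG2/A2B5 against NG2 and -0.01 ± 0.48 in O4 against NG2/A2B5 (SE). O4 and NG2 arrays took part in choosing the gene, so both values are descriptions with no test attached. A further Wdr54 probe was missing on 3 arrays and dim on the others.

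Bbs2 (Entrez 113948), a BBSome subunit, read 3.16, 3.05 and 3.68 in O4, 2.72, 2.87 and 3.31 in NG2/A2B5, and 4.41, 4.001 and 6.41 in NG2 on arrays I, II and III. O4 arrays overlapped NG2/A2B5 and lay below NG2. The difference between NG2/A2B5 and NG2 was -0.71 ± 0.21 (SE, 95% interval -1.19 to -0.23), which did not pass in limma (adjusted p 0.9695). With the mean over both Bbs2 probes it was 0.16. The dim probe is missing on 5 arrays, among them NG2/A2B5 I and II but no NG2 array, so that mean compares unlike sets of probes.

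Of the other IFT and CEP genes with the smallest p, Ift172, of the IFT-B complex, had a difference of -0.41 ± 0.20 and overlapping arrays, and Cep83 had -0.39 ± 0.21 without overlap (SE, limma adjusted p 0.9999 each). Cep83 read 13.4, 9.41 and 13.7 in O4, 13.9, 14.8 and 14.6 in NG2/A2B5, and 15.3, 19.3 and 22.8 in NG2, an order that ran O4, NG2/A2B5, NG2 with no overlap between neighbours. Rfx3 kept a similar order with 1 overlap: 1.36, 1.20 and 1.19 in O4, 1.94, 1.78 and 1.54 in NG2/A2B5, and 2.56, 1.65 and 2.88 in NG2. Drc1 had a difference of 0.76 without overlap, and Cfap36, which binds Arl3, had 0.32 with overlap. Cfap45 had 3.69 without overlap, a size that rests on readings of 0.302, 0.313 and 0.233 in NG2/A2B5, against 0.0669, -0.0142 and 0.219 in NG2. Tmem212 had -3.63 with overlap, on values near 0.

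Arl6, the GTPase that recruits the BBSome, and Arl3, which releases lipid-anchored cargo in cilia, were both over the array median on all 9 arrays. Arl3 read 73.9, 81.2 and 78.6 on arrays I, II and III of O4, 75.6, 65.0 and 73.6 in NG2/A2B5, and 69.3, 74.3 and 61.9 in NG2. Arl6 read 14.7, 15.7 and 17.9 in O4, 14.5, 17.6 and 17.3 in NG2/A2B5, and 15.5, 20.3 and 13.4 in NG2. Their arrays overlapped in both comparisons. Of the other RFX genes, Rfx1 read 3.81 to 5.69 and Rfx7 43.9 to 55.4 over the 9 arrays. Rfx2, which acts with Rfx3 on ciliary genes in mouse, read 2.10, 1.22 and 2.59 in O4, 1.56, 1.37 and 1.20 in NG2/A2B5, and 1.26, 1.32 and 1.24 in NG2. O4 I and O4 III were the high arrays and O4 II overlapped the rest.

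**Figure D3:**
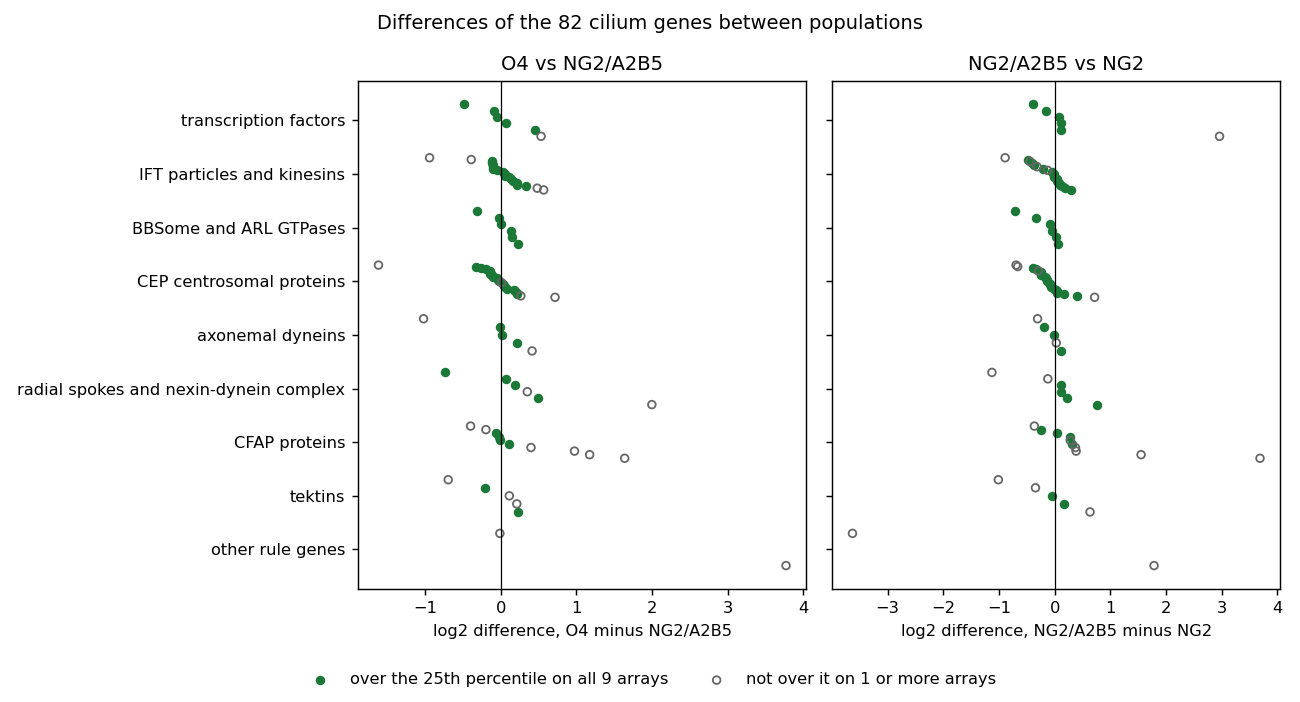
Log2 difference of each of the 82 cilium genes by role, O4 minus NG2/A2B5 (left) and NG2/A2B5 minus NG2 (right); each point is a gene, filled where it was over the 25th percentile on all 9 arrays and open where it was not. Filled points lie between -0.74 and 0.50 on the left and between -0.71 and 0.76 on the right, and all points beyond these are open.

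Between O4 and NG2, the contrast that picked Cfap126 and Wdr54, 6 members were higher in O4 and 9 lower with no overlap between arrays, together 18.3% of the members, against 14.0% of all genes (7.5% higher and 6.55% lower). By the same fit 0 of 82 were called, beside 0.00822% of all genes, and nothing is read from these counts. The largest positive log2 differences without overlap were 2.53 for Cfap107, 2.01 for Cfap126, 1.77 for Wdr54, 0.78 for Cfap276 and 0.61 for Drc3. The Cfap107 value rests on 1 dim reading and was 0.86 without NG2 II. Cfap107 and Cfap276, both proteins inside doublet microtubules, read 0.341 to 0.536 and 0.478 to 0.613 in O4, against 0.0073 to 0.253 and 0.192 to 0.405 in NG2. The largest negative ones were -0.99 for Dnah1, -0.88 for Rfx3, -0.66 for Cep95, -0.66 for Cep83 and -0.56 for Bbs2. Cep95 read 7.53, 6.92 and 6.67 in O4 on arrays I, II and III, against 10.1, 7.78 and 17.4 in NG2. With the mean over both probes the Bbs2 value was 1.41. The dim Bbs2 probe is missing on all O4 arrays and present on all NG2 arrays, so that mean compares unlike sets of probes.

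The arrays also differ by numeral, and the choice of members did not use that contrast. For the 82 genes the numeral held a median of 30.1% of the variance of log2 intensity over the 9 arrays and the population 19.6%, against 34.2% and 21.2% over all genes with 9 values. The numeral held the larger share in 49 members (59.8%), against 61.1% of 12025 genes. The shares differed by gene: Bbs4 had 94.96% between numerals and 2.82% between populations, Cfap141 92.3% and 1.73%, Rfx5 87.2% and 9.06%, and Kif3c 80.6% and 1.88%. Cfap126 had 74.9% between populations and 10.5% between numerals, Rfx3 72.7% and 9.40%, Wdr54 71.5% and 23.8%, and Bbs2 71.0% and 23.0%. Cfap126 and Wdr54 were chosen for a difference between O4 and NG2 on these arrays, so their large population shares follow from that choice. The numeral shares had medians of 64.0% for axonemal dyneins, 36.1% for IFT and kinesin genes, 32.6% for CEP genes and 18.9% for transcription factor genes.

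**Figure D4:**
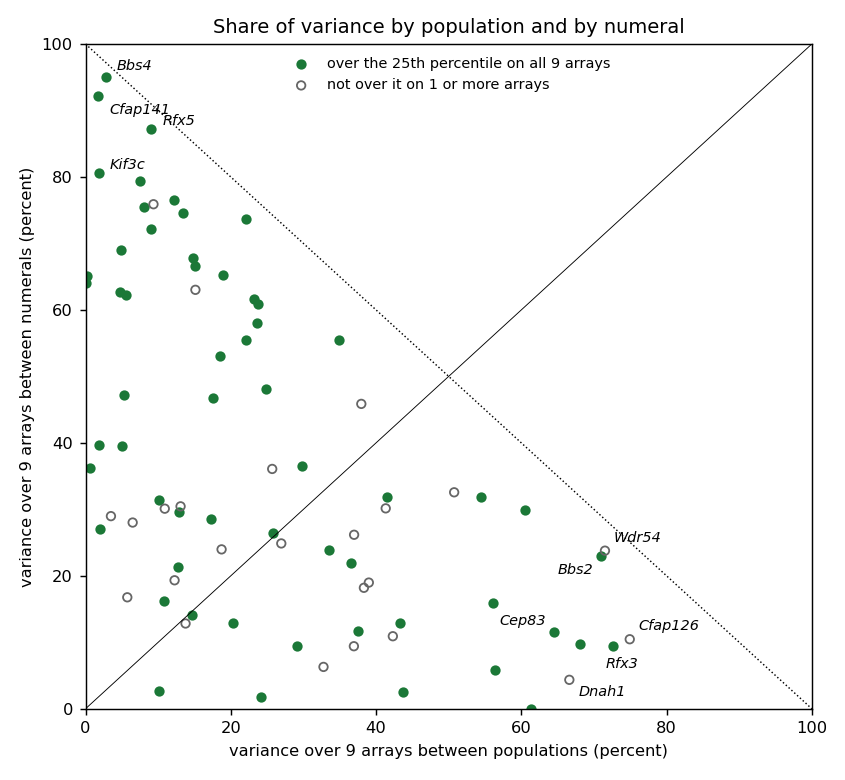
Percent of the variance of log2 intensity over 9 arrays that lies between populations (horizontal) and between numerals (vertical), one point per cilium gene, filled where the gene was over the 25th percentile on all 9 arrays. Genes on the dotted line have all their variance in the sum of both, and the solid line marks equal shares. Bbs4, Cfap141, Rfx5 and Kif3c lie at the top left and Cfap126, Rfx3, Wdr54 and Bbs2 at the lower right. Cfap126 and Wdr54 were chosen for their difference between O4 and NG2.

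The numeral III arrays were set against the numeral II arrays with population in the model. Cfap141 and Rfx5 were higher on the III arrays and were the members called, 2 of 82 (2.44%), against 3.55% of 12166 genes. Neither call held when an array was left out, where calls over all genes also dropped, to between 0 and 5 of them: each of the 9 fits that left out 1 array gave 0 member calls, with adjusted p-values of 0.0711 to 0.153 for Cfap141 and 0.0828 to 0.184 for Rfx5. The count was also 0 with only the 6 arrays compared, with the mean of a gene's probes and with all probes tested. At an unadjusted p under 0.05 there were 21 members (25.6%) against 23.7% of all genes. Arrays did not overlap for 14 members higher and 11 lower on III, together 30.5%, against 26.6% of all genes (10.5% higher and 16.1% lower). The median log2 difference was 0.01 over members, with 43 positive and 39 negative, and -0.08 over all genes.

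Cfap141 (Entrez 499656), a protein on the inner wall of doublet microtubules, read 2.46, 2.32 and 2.41 on the III arrays of O4, NG2/A2B5 and NG2. It read 1.21, 1.14 and 0.848 on the II arrays and 1.57, 1.41 and 1.64 on the I arrays in the same order. The 3 numerals did not overlap, and the III to II log2 difference was 1.19 ± 0.16 (SE, 95% interval 0.78 to 1.59, limma adjusted p 0.0337), a fold of 2.28 with the same sign in 3 of 3 populations. Rfx5 (Entrez 310659), best known as the factor that binds the X box of MHC class II promoters, read 42.6, 46.4 and 52.7 on the III arrays of O4, NG2/A2B5 and NG2. It read 26.7, 30.1 and 31.5 on the II arrays and 34.9, 31.9 and 37.3 on the I arrays. Again no numeral overlapped another, and the III to II difference was 0.68 ± 0.12 (SE, 95% interval 0.39 to 0.97, limma adjusted p 0.0476), a fold of 1.60. A dimmer Rfx5 probe read 0.390, 0.143 and 0.226 on III and 0.233, 0.184 and 0.0490 on II, with overlap.

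Just outside the threshold stood Ift88, an IFT-B protein without which cilia do not form in mouse. It read 9.12, 10.2 and 14.6 on the III arrays of O4, NG2/A2B5 and NG2, against 6.25, 3.98 and 4.90 on the II arrays, and 8.56, 5.95 and 9.19 on the I arrays. III lay above II without overlap, and the difference was 1.16 ± 0.22 (SE, limma adjusted p 0.0573). Ift46, of the same complex, had 0.64 ± 0.17 (SE, limma adjusted p 0.104) and Cep162, which tethers the transition zone to the axoneme, 0.57 ± 0.14 (SE, limma adjusted p 0.0930), both without overlap. The BBSome subunits Bbs4 and Bbs7 had 0.38 and 0.62, each without overlap.

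Members lower on III than on II included Dnal1, a light chain of outer-arm dynein. It read 0.879, 0.647 and 0.544 on the III arrays of O4, NG2/A2B5 and NG2, against 1.18, 1.21 and 1.27 on the II arrays, and 1.16, 0.979 and 0.861 on the I arrays. III was below II in each population, with a difference of -0.85 ± 0.17 (SE, limma adjusted p 0.0628). Cfap20, of the inner junction of doublet microtubules, read 112, 127 and 141 on III, against 174, 163 and 201 on II, and 133, 127 and 155 on I, in the same order of populations. Its difference was -0.51 ± 0.11 (SE, limma adjusted p 0.0769), without overlap between III and II. The kinesin-2 motor Kif3b had -0.53 without overlap, and its other probe read 22.1, 25.9 and 22.9 on III against 31.9, 30.4 and 29.1 on II. Tekt3 had -1.35 on a dim probe, without overlap. Cfap276 had -0.86 with overlap.

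**Figure D5:**
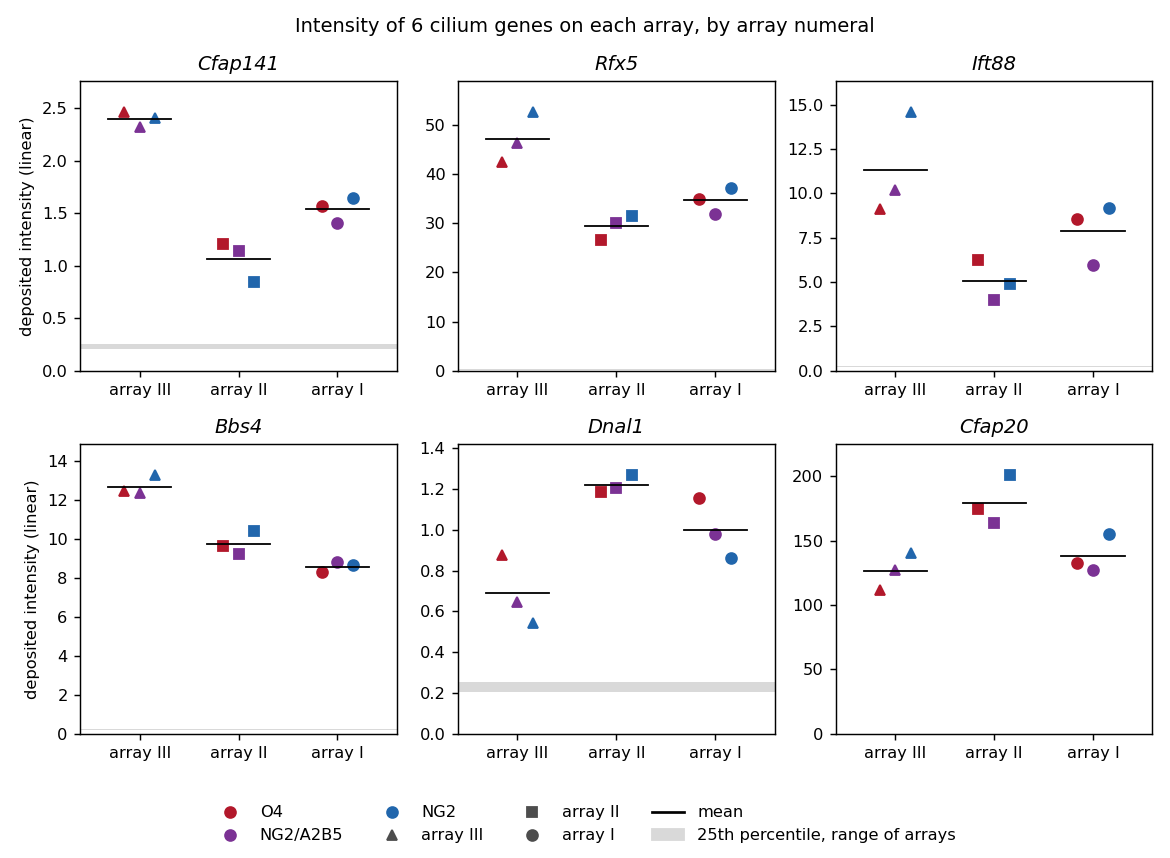
Deposited intensity (linear) of Cfap141, Rfx5, Ift88, Bbs4, Dnal1 and Cfap20 by array numeral III, II and I, with O4 in red, NG2/A2B5 in purple and NG2 in blue; the black line is the mean of 3 arrays and the grey band the range of the array 25th percentiles. Arrays III lie above arrays II in each population for Cfap141, Rfx5, Ift88 and Bbs4, and below them for Dnal1 and Cfap20.

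No member was called between III and I, where 0.0% of 12166 genes were, or between II and I, where 0.23% were. The F test over the 3 numerals also called 0 members by limma, against 0.674% of genes, with 19 members (23.2%) and 21.5% of all genes at an unadjusted p under 0.05. Unadjusted counts were 11 members (13.4%) against 12.6% of genes for III and I, and 14 (17.1%) against 17.2% for II and I. Arrays of III and I did not overlap for 12 members (14.6%), against 18.5% of all genes, 8 of them higher (10.3% of all genes) and 4 lower (8.2%). Arrays of II and I did not overlap for 20 members (24.4%), against 21.7% of all genes, 11 of them higher (14.9% of all genes) and 9 lower (6.83%). Bbs4 had the smallest p between III and I: it read 12.4, 12.3 and 13.3 on the III arrays of O4, NG2/A2B5 and NG2, 9.64, 9.23 and 10.4 on II, and 8.27, 8.82 and 8.64 on I. The 3 numerals did not overlap, and the III to I difference was 0.56 ± 0.11 (SE, limma adjusted p 0.242). Kif3a, the partner of Kif3b in kinesin-2, had -0.55 ± 0.15, and Dnai4, a dynein intermediate chain, -0.84 on a dim probe (SE, limma adjusted p 0.276 and 0.295). Wdr54 had 1.13 between III and I with overlap, and -0.19 with the mean over its probes, of which the dim one is missing on 3 arrays.

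Between II and I, Tekt3, a filament protein of the ciliary doublets, read 0.341, 0.600 and 0.198 on the II arrays of O4, NG2/A2B5 and NG2, against 0.0460, 0.0870 and 0.108 on the I arrays. The II arrays were higher without overlap, by 2.18 ± 0.42 (SE, limma adjusted p 0.115), on a probe over the 25th percentile on 2 of 9 arrays. Kif3c, a further kinesin-2 motor, read 16.2, 21.5 and 17.7 on the II arrays, against 11.9, 9.12 and 10.9 on the I arrays, a difference of 0.80 ± 0.19 (SE, limma adjusted p 0.145). Cep290, a protein of the transition zone at the base of the cilium, had -0.47 ± 0.13 and Bbs7 -0.67 ± 0.19, without overlap (SE, limma adjusted p 0.183 and 0.189). The median difference of all genes was 0.10 between II and I, which was 0.02 after quantile normalization.

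Markers of other cells moved between the same arrays. On III against II the log2 differences were 1.72 for Gfap and 1.27 for Aldoc, both of astrocytes (limma adjusted p 0.0240 and 0.0284), and 1.37 for Mia and 2.70 for Dynlrb2, both on the ependymal list (0.0216 and 0.0449). These were the markers called, 4 of 57 cell type markers (7.02%) against 3.55% of all genes, and all were higher on III. With any 1 array left out 0 markers were called. On II, Gfap read 0.113 to 0.187 and Dynlrb2 0.022 to 0.181, under the 25th percentile of every array. The sizes of these differences therefore rest on dim readings. With a floor at that percentile 5 of 57 markers (8.77%) were called, against 10.6% of all genes. Gfap, Aldoc and Mia were still called and Dynlrb2 was not. Gja1, lower on III, and Dcx, higher on III, became called, and both are described below. Without the floor, the other members of the astrocyte and ependymal lists differed in direction: 4 of 7 astrocyte markers were negative, with a list median of -0.26, and 6 of 12 ependymal markers were, with 0.04. The astrocyte markers summed to 112 to 160 on III, against 65.3 to 101 on II, mostly from Slc1a3 and Aldoc. Gja1, an astrocyte gap junction gene, read 0.168 to 0.274 on III, against 0.532 to 1.56 on II. The ependymal markers summed to 22.4 to 33.8 on III, against 15.7 to 24.5 on II, with overlap and mostly from Mia, Tppp3 and Mlf1. In the limma fit without a floor no marker was called of 10 choroid plexus, 6 neuronal, 10 microglial and 12 oligodendrocyte lineage markers, where 1, 2, 1 and 5 had an unadjusted p under 0.05. Of the neuronal markers Dcx, a microtubule protein of young neurons, read 19.9 to 21.4 on III, against 5.83 to 10.6 on II, without overlap (limma adjusted p 0.0718). Snap25, Stmn2 and Nefm, further neuronal genes, read 0.313 or less on all arrays of these numerals. Elavl4 read 0.702 to 1.197 on III and 0.594 to 1.075 on II, and Nefl 1.081 to 1.795 and 1.0 to 1.339, both with overlap. The lineage markers summed to 708 to 829 on III, against 534 to 588 on II, without overlap and mostly from Bcas1, Cnp and Cspg4. Mia was lower on II than on I, by a log2 difference of -1.25 (limma adjusted p 0.0454). Between II and I the ependymal list had a median difference of -0.73 with 10 of 12 negative, and between III and I of -0.51 with 10 of 12 negative. Their part in the differences of the cilium genes was not tested.

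Cilium genes outside the selected symbols, in lists of IFT dynein and transition zone, basal body, axoneme and ciliary signalling genes, gave 106 measured genes. None was called between O4 and NG2/A2B5 or between NG2/A2B5 and NG2, with 7 (6.6%) and 6 (5.66%) at an unadjusted p under 0.05, against 3.28% and 4.48% of all genes. On III against II 5 (4.72%) were called in limma, against 3.55% of all genes, and 0 were called with any 1 array left out or when probes were averaged per gene. These 5 were all higher on III: Dynlrb2, a dynein light chain, by 2.70 (adjusted p 0.0449), Boc, a Hedgehog coreceptor, by 1.14 (0.0449), Lztfl1, a BBSome regulator, by 1.01 (0.0448), Evc, a ciliary Hedgehog protein, by 0.70 (0.0448), and Dzip1, a basal body protein, by 0.65 (0.0494). The list had 67 positive and 39 negative differences with a median of 0.10, beside -0.08 over all genes. Dynlrb2 read 0.022 to 1.09 over the 9 arrays.

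The spread over the 9 arrays was widest for genes with dim probes. The median SD of log2 intensity was 0.36 over the 82 genes, 0.28 over the 58 that passed the 25th percentile on all arrays, and 0.33 over all genes. It was 0.24 for BBSome and ARL genes, 0.28 for CEP genes, 0.30 for IFT and kinesin genes and 0.61 for CFAP genes. Ift57 had the smallest SD of its group at 0.12, with readings of 4.19 to 5.45, and Rfx7 and Arl3 had 0.12 and 0.13. Foxj1 had 3.14 and Tmem212 3.05, both with a value at or below 0. A further probe over the array 25th percentile on all arrays existed for 11 members. Its difference had the sign of the first probe in 5 of 11 for O4 against NG2/A2B5, 8 of 11 for NG2/A2B5 against NG2 and 7 of 11 for III against II.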

How the data were processed

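The values analysed are the intensity of each probe on 9 one-colour arrays, on a linear scale, as the authors deposited them. Per the labels' protocols, RNA went through 2 rounds of amplification by in vitro transcription, with spiked controls that served to normalize. Neither scanner nor software was given in the sources used here. Values coded -9999 were missing, values at or below 0 were set to the array's smallest positive value, and log2 was taken. Array medians were alike, so nothing else was scaled. Of the probes, 16865 carry 1 gene symbol, and 16836 identifiers matched RefSeq (GRCr8). The probe with the highest mean stood for its gene.

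limma 3.58.1 (R 4.3.3, lmFit and eBayes, two-sided) was fitted to all 9 arrays and all genes, by population (6 residual and 1.76 prior degrees of freedom) or by numeral with population in the model (4 and 1.55), and adjusted by Benjamini-Hochberg. Precision is limited by the number of arrays. Same-numeral arrays of different populations correlated, in deviations from population means over 12025 genes, at 0.037 to 0.144 in 9 pairs, and different numerals at -0.107 to 0.007 in 18. Numerals were not treated as pairs, since the labels do not say what they mark. The promoter motifs were searched in Python 3.11.15.

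Members, roles, lists and tests were chosen with earlier results of these data known. Genes named are Cfap126, Wdr54, Foxj1, Tmem212, Arl3, Arl6 and the Rfx genes, the 5 smallest p per direction and contrast, those called, the largest O4 to NG2 differences without overlap, and the extremes of SD by role. Bbs4 and Bbs7 on III against II, some probes and the motif bearers were named after their values were seen. Other settings were quantile normalization, centring, low-value filters, probe rules, variance options, numeral blocks and left-out arrays.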

Additional observations from a re-analysis of the deposited data

How the results depend on the processing

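For 62 gene differences, each taken under the other settings, there were 1103 results. Of these 1044 were the same, 5 moved, 22 were no longer called, 22 became called and 10 reversed. Same means that the direction held and, outside O4 against NG2, the side of the threshold. In O4 against NG2 it means instead a shift under the mean SD of both populations, and moved a larger one. All 22 lost calls were of Cfap141 and Rfx5 on III against II, the members called at first. For the other differences, same mostly means still not called. The reversals were 0.08 for Cep70 (O4 against NG2/A2B5) and -0.008 for Foxj1 (NG2/A2B5 against NG2) with a floor at the 25th percentile, -0.051 for Foxj1 without NG2 replicate 1 (up to 4.79 without NG2 replicate 2), and, with the mean of a gene's probes, 0.157 and 1.414 for Bbs2 (NG2/A2B5 and O4 against NG2) and -0.191 for Wdr54 (III against I). The probe means of Bbs2 and Wdr54 take in a dim probe that is missing on some arrays, so they compare unlike sets of probes. Wdr54 in O4 against NG2/A2B5, near 0 at -0.014, became 0.168, 0.012, 0.038 and 0.257 without O4 I, O4 II, NG2/A2B5 II and NG2/A2B5 III, and its values with an array left out ran from -0.338 to 0.257. Members called on III against II, 2 at first, were 8 without genes under the 25th percentile (12.3% of all genes), 8 with a floor there (10.6%), 11 with trend and robust variances (15.5%), 0 with the mean of probes, all probes or only the 6 arrays compared, and 0 to 0 with an array left out. The F test, with 0, gave 5 and 5 with those low-value rules (8.31% and 7.55% of all genes), 10 with trend and robust variances (15.0%) and 1 without population in the model (1.99%). Trend and robust variances also gave 1 between III and I (2.56%) and 2 between II and I (6.85%). With the numeral as a replicate block, fixed or random, 0 members were called in each contrast of populations. With the fixed block and trend and robust variances together, a setting chosen after seeing the data, 1 was called in NG2/A2B5 against NG2 (0.781% of all genes) and 2 in O4 against NG2 (1.02%); the first is Wdr54, whose choice used the NG2 arrays, and the second contrast chose members, so nothing is read from either. Apart from the probes missing in those means, the cause of these changes was not tested. Dim probes limit Foxj1, Tmem212, Dnah1, Tekt1, Tekt2 and Tekt3.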
